A study of Canis lupus familiaris with 36 samples.

Results

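The genes described are 9 genes through which T cells are held back: the inhibitory receptors PDCD1, CTLA4, LAG3, TIGIT, HAVCR2 and BTLA, the ligand CD274, the regulatory T cell factor FOXP3 and the cytokine IL10. They were picked by symbol in the platform annotation, not by a measured value, though with earlier results of these data known. All 9 had a probe set, 16 probe sets in all, out of 15115 genes with one. Where a gene had several, the one brightest on average was used. Detection was judged against a minimum log2 intensity of 4 (16 on the linear scale), and genes reaching it in at least 4 of 34 dogs were tested. That left 7500 genes, among them 4 of the 9: CTLA4, LAG3, HAVCR2 and BTLA.

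Lymphoma tissue of 35 dogs had been run on 36 Affymetrix canine arrays, and 1 DLBCL dog had 2 arrays, which were averaged. The T phenotype covered 17 dogs: 4 labelled LBT (ages 3 to 10 years), 4 with peripheral T-cell lymphoma (PTCL, 6 to 14 years) and 9 with T-zone lymphoma (TZL, 7 to 11 years). The B phenotype also covered 17 dogs: 2 labelled BL (2 and 5 years), 10 with diffuse large B-cell lymphoma (DLBCL, 4 to 14 years) and 5 with marginal zone lymphoma (MZL, 4 to 10 years). A single dog labelled NBNT, 8 years old, entered no test. TZL, MZL and NBNT were graded low and the others high, apart from PTCL replicate 4, graded intermediate. There were 15 males and 20 females, and 24 of the dogs were Golden Retrievers. These were 3 of 4 LBT, 1 of 4 PTCL and 8 of 9 TZL dogs. Among the B labels they were 1 of 2 BL, 6 of 10 DLBCL and 4 of 5 MZL dogs, and the NBNT dog was another. No treatment is named for any dog, and every comparison here is between lymphomas. The tumours were broken up mechanically and filtered before RNA was prepared, so each array reads tumour cells together with whatever other cells passed, and fewer cells of a type cannot be told apart from less RNA per cell.

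Inhibitory receptors sit on activated lymphocytes and dampen signals from the antigen receptor when their ligands are present. CTLA4 competes with the costimulator CD28 for the ligands CD80 and CD86, PDCD1 is engaged by CD274, and BTLA, found on B cells as well as T cells, binds the receptor HVEM. FOXP3 is the lineage factor of regulatory T cells, which carry CTLA4 at their surface, and IL10 is a cytokine that restrains macrophages and dendritic cells. These genes are studied in lymphoma because both the malignant lymphocytes and the bystander T cells can carry the receptors.

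On 6 arrays the actin 3' control read 14.0 to 14.4 on the log2 scale, against 10.8 to 12.5 for the other 29 dogs. The 6 comprise PTCL replicate 3, TZL replicates 1, 2 and 7 and DLBCL replicates 4 and 9. Within subtypes, 22.4% of all genes tested differed between these arrays and the rest by limma. In 2 dogs, MZL replicate 2 and PTCL replicate 3, the EIF2S3 probe set read on the other side from the labelled sex. The T phenotype had a summed intensity over 8 of 8 T cell markers of 7337 to 33180, against 1718 to 8203 in the B phenotype, and 7 of 8 B cell markers had a probe set, with a sum of 42 to 3551 in T, against 3715 to 7251 in B. PAX5, a defining B cell factor, was below the minimum in every dog, and BLK in every LBT dog. CD28 was below it in every BL and MZL dog. The difference between the 3' and 5' actin probe sets, a measure of RNA integrity, had a median of 4.89 in T and 6.85 in B.

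The 9 genes fell into 3 levels of detection. On their brightest probe sets HAVCR2 reached the minimum in 35 of 35 dogs, BTLA in 31 and CTLA4 in 23. Their other probe sets reached the minimum in 1 dog for HAVCR2, in 21 and 1 for BTLA and in 5 for CTLA4. LAG3 reached it in 5 dogs, IL10 in 3 and CD274 in 1. PDCD1, TIGIT and FOXP3 were below it in 35 of 35 dogs, so no statement on their differences rests on detected signal.

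**Figure D1:**
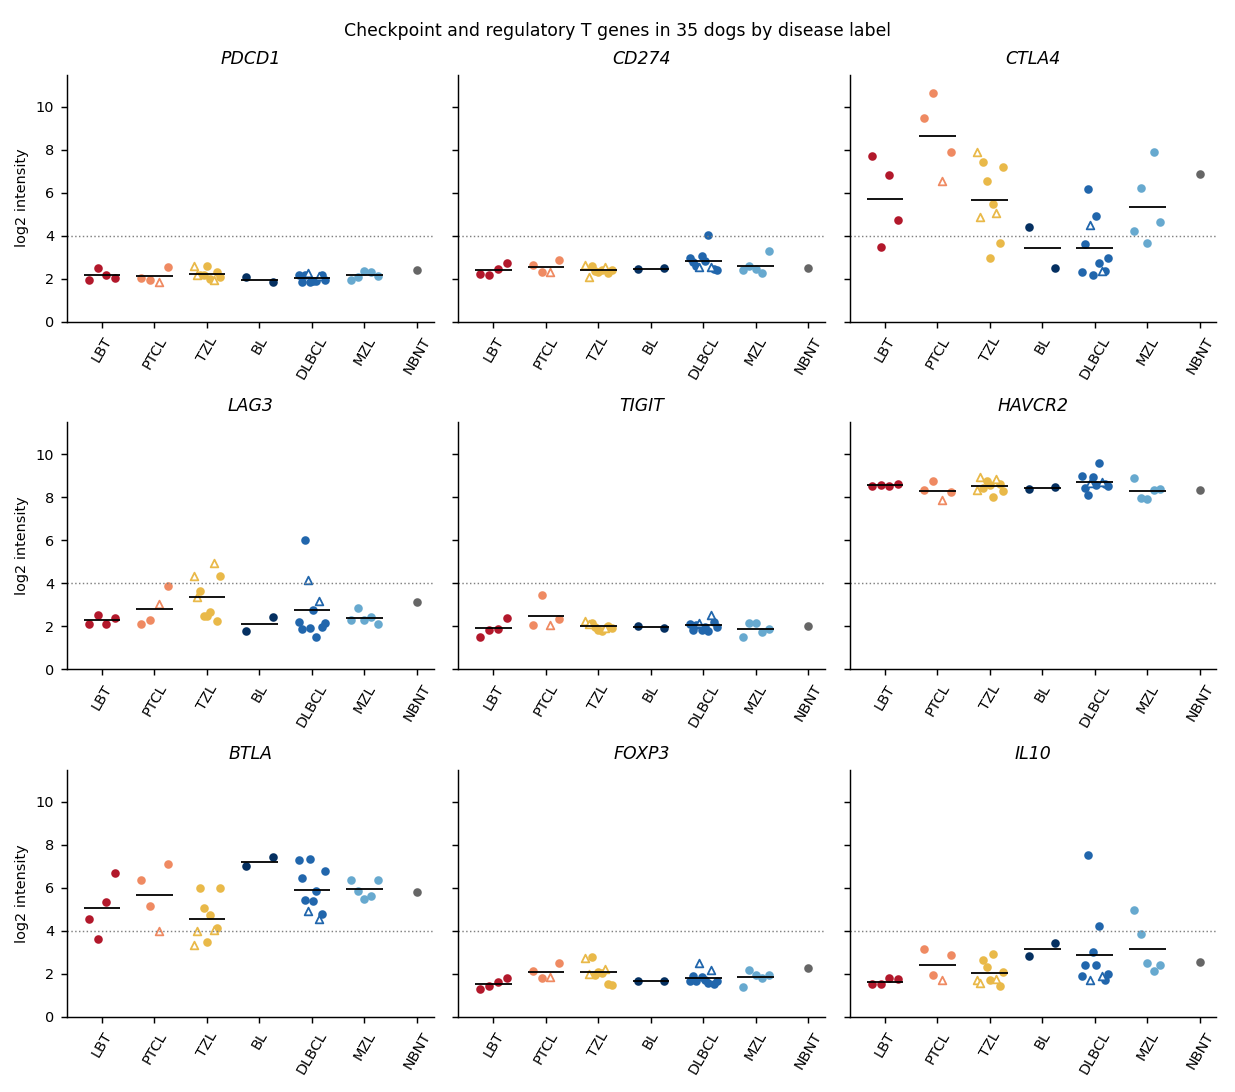
Log2 intensity of the 9 genes (vertical axis) in each dog, by disease label (horizontal axis). Each point is 1 dog, open triangles are the 6 arrays with a high actin 3' control, bars are group means and the dotted line is the minimum of 4. CTLA4 is highest in PTCL, with a mean of 8.65, and BTLA in BL, at 7.00 and 7.43. HAVCR2 on its brightest probe set lies between 7.89 and 9.58 in every dog, and PDCD1, TIGIT and FOXP3 stay under the line throughout.

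Of the 4 genes tested, 2 were called between T and B by limma at an adjusted p under 0.05, CTLA4 higher and BTLA lower in T, where 46.5% of all genes tested were called, 22.3% higher and 24.2% lower. In PTCL against TZL 1 of 4 was called, CTLA4, which was higher, with 13.7% of all genes called, 7.6% higher and 6.07% lower. In TZL against MZL none of the 4 was called by limma, with 27.5% of all genes called (12.3% higher and 15.2% lower), and 1 had an unadjusted p under 0.05. In DLBCL against MZL none was called by limma, nor was any other gene (0%), and 2 had an unadjusted p under 0.05. In LBT against TZL none was called by limma and 0 had an unadjusted p under 0.05, while 30.1% of all genes were called, 17.8% higher and 12.4% lower. In LBT against PTCL none was called by limma and 1 had an unadjusted p under 0.05, with 0.68% of all genes called. The difference of differences, PTCL minus TZL against DLBCL minus MZL, asks whether PTCL differs from TZL as DLBCL does from MZL. LBT, also graded high, does not enter it. There 1 of 4 was called, CTLA4 with a positive value, with 1.96% of all genes called and 1.21% called positive. With 2 of 4 against 46.5%, T against B called these genes about as often as any other.

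**Figure D2:**
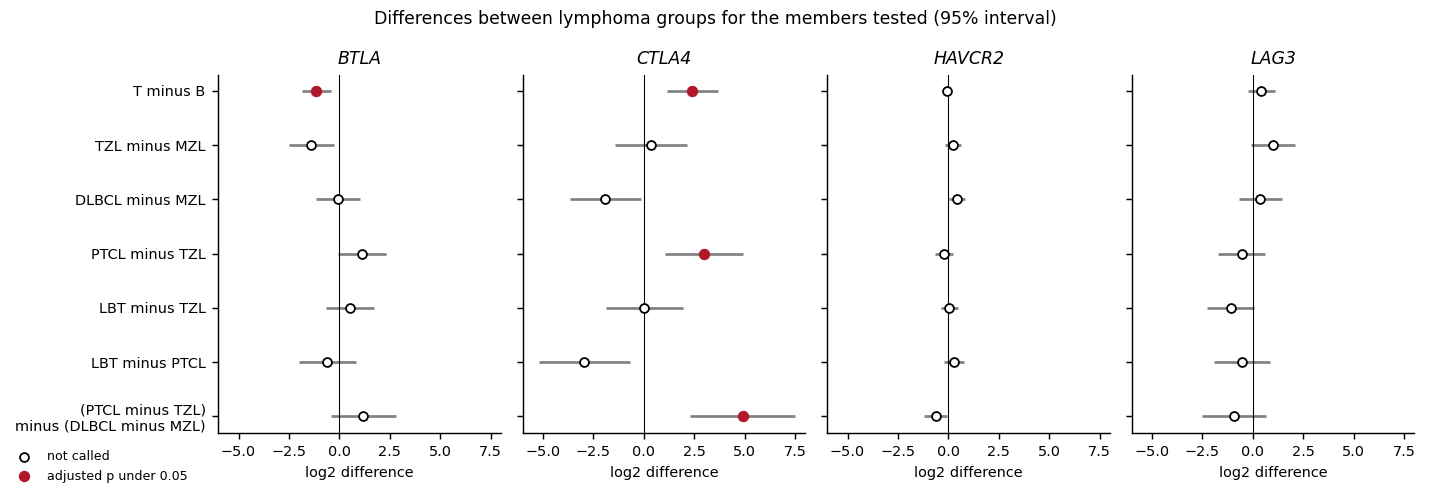
Log2 difference (horizontal axis) of the 4 genes tested in the 7 comparisons (vertical axis), with 95% intervals from limma. Filled points had an adjusted p under 0.05. CTLA4 is filled in T minus B at 2.40, in PTCL minus TZL at 2.98 and in the difference of differences at 4.88, and BTLA in T minus B at -1.14.

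CTLA4, the receptor that competes with CD28, varied more between dogs than any other of the 9 genes, over a log2 range of 2.19 to 10.66. In LBT it read 7.70, 3.50, 6.83 and 4.74 in replicates 1 to 4. In PTCL it read 9.48, 10.66, 6.53 and 7.92. In TZL the lowest dog was at 2.96, the median at 5.46 and the highest at 7.88. All 4 PTCL dogs were above the minimum, and 3 of them exceeded every TZL and LBT dog. Among the B labels, the 2 BL dogs read 4.39 and 2.48, and DLBCL dogs had a lowest value of 2.19, a median of 2.84 and a highest of 6.17. The 5 MZL dogs read 4.23, 6.21, 3.66, 7.88 and 4.63. Only 3 of 10 DLBCL dogs and 1 of 2 BL dogs reached the minimum, against 4 of 5 MZL dogs. In descending order the means were 8.65 ± 1.80 in PTCL (SD, n = 4), 5.69 ± 1.92 in LBT (n = 4), 5.67 ± 1.71 in TZL (n = 9), 5.32 ± 1.71 in MZL (n = 5), 3.44 ± 1.35 in BL (n = 2) and 3.42 ± 1.37 in DLBCL (n = 10). Every neighbouring pair in this order overlapped.

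CTLA4 averaged 6.38 ± 2.11 in T and 3.98 ± 1.64 in B (SD, n = 17 each), a log2 difference of 2.40 (SE 0.62, limma adjusted p = 0.0021). With readings under 4 raised to 4, the difference was 1.84, which is 3.58-fold (limma adjusted p = 0.0049). The ranges of T and B overlapped, and the call held without each dog in turn. T cell markers were higher in T over the same dogs, as given above. Within the 17 B dogs, of which 9 were under the minimum on CTLA4, the CTLA4 reading correlated with the mean log2 level of the T cell markers (Pearson r = 0.643, permutation adjusted p = 0.013, and Spearman rho = 0.627, permutation adjusted p = 0.035, over 8 relations tested). The marker mean also holds undetected readings, with CD28 under the minimum in 16 of 17 B dogs, TRAT1 in 8 and CD5 in 7. The relation thus rests in large part on undetected readings. It pools BL, DLBCL and MZL, and the part of the labels in it was not tested. Without the 2 dogs farthest from the marker median r was 0.694, and without the 2 arrays of high actin 3' control it was 0.703. Within the 17 T dogs r was -0.362 (permutation adjusted p = 0.179) and rho was -0.397 (permutation adjusted p = 0.177), and r was -0.140 without the 2 farthest dogs and -0.378 without the 4 arrays of high actin 3' control. The set of 6 arrays holds too few dogs of either phenotype for a value of its own. Among the T dogs, PTCL replicate 4 had the lowest T cell marker sum, 7337, with a CTLA4 level of 7.92.

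**Figure D3:**
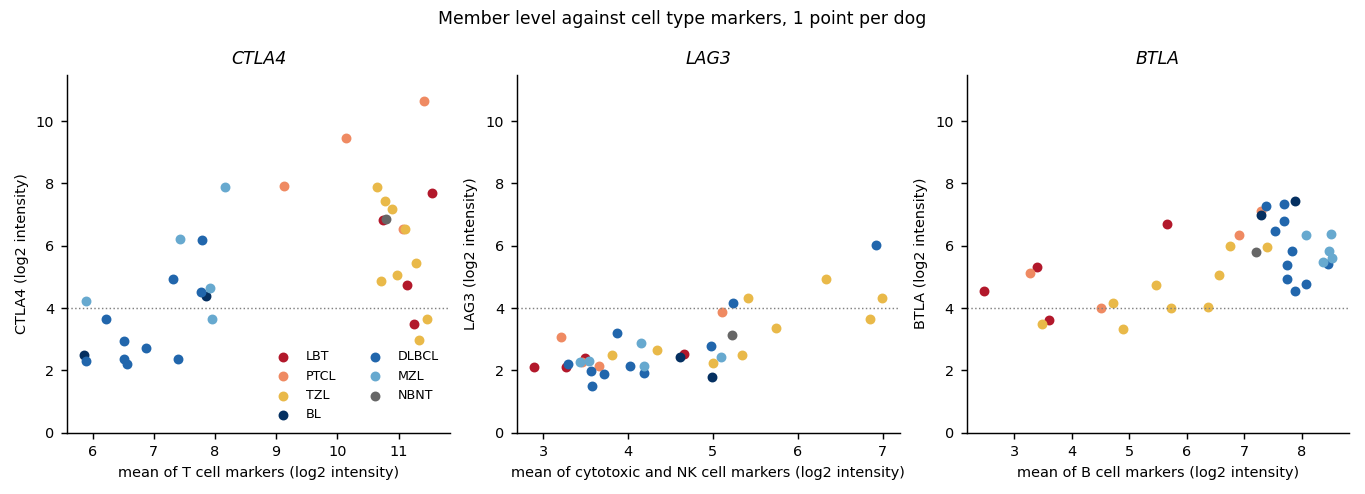
Level of CTLA4, LAG3 and BTLA (vertical axes, log2 intensity) against the mean log2 intensity of T cell, cytotoxic and NK cell, and B cell markers (horizontal axes), 1 point per dog, coloured by label. Over the 17 B dogs, 9 of them under the minimum on CTLA4, r between CTLA4 and the T cell markers was 0.643. On CTLA4, 3 of the 4 PTCL dogs lie above all other T dogs. LAG3 is under the minimum, the dotted line, in 14 of 17 T dogs and 15 of 17 B dogs.

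Between the T labels, CTLA4 averaged 8.65 in PTCL and 5.67 in TZL, a difference of 2.98 (SE 0.94, limma adjusted p = 0.0315). With readings under 4 raised to 4 the difference was 2.82, or 7.07-fold (limma adjusted p = 0.0147). The ranges overlapped, since PTCL replicate 3 at 6.53 was below 4 of the TZL dogs. The call was lost without any one of 4 dogs: the limma adjusted p was 0.177 without PTCL replicate 2, 0.0885 without PTCL replicate 1, 0.0592 without TZL replicate 5 and 0.0556 without TZL replicate 8. It was also lost in 4 of the 17 alternatives, at limma adjusted p of 0.0556 with no filter on low values, 0.0531 with array weights, 0.0578 with sex, breed and age as covariates, and 0.0538 with the compared groups only, with differences of 2.98 to 3.05. Without the 6 arrays of high actin 3' control the difference was 3.81 (limma adjusted p = 0.0339). Markers of cell division also differed between these labels, with a summed intensity over 8 of 11 markers of 4937 to 9439 in PTCL, against 743 to 2364 in TZL, and PTCL dogs had a macrophage and dendritic cell sum over 15 markers of 6006 to 10487, against 302 to 11323 in TZL. Across T dogs CTLA4 and the cell division markers had r = 0.339 (permutation adjusted p = 0.183) and rho = 0.157 (permutation adjusted p = 0.548), with r = 0.198 without the 2 farthest dogs and 0.419 without the arrays of high actin 3' control. Breed was uneven in this comparison, with Golden Retrievers making up 8 of 9 TZL dogs and 1 of 4 PTCL dogs. The part of either marker list in the difference was not tested.

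LBT was graded high in 4 of 4 dogs and PTCL in 3 of 4. CTLA4 was 5.69 in LBT and 8.65 in PTCL, a difference of -2.96 (SE 1.10, unadjusted p = 0.0117, limma adjusted p = 0.229). LBT and TZL differed by 0.02 (SE 0.94, 95% interval -1.89 to 1.93, limma adjusted p = 0.991). In the B lineage CTLA4 was 3.42 in DLBCL, graded high, and 5.32 in MZL, graded low. The difference was -1.91 (SE 0.85, unadjusted p = 0.033, limma adjusted p = 0.335). The DLBCL mean lay under the minimum, as did 7 of 10 DLBCL dogs. With readings under 4 raised to 4, DLBCL minus MZL was -1.03 (limma adjusted p = 0.605). The difference of differences was 4.88 (SE 1.27, limma adjusted p = 0.0343), positive because PTCL exceeded TZL while DLBCL was below MZL. That call was lost without any of 6 dogs, with limma adjusted p of 0.131 without PTCL replicate 2, 0.077 without PTCL replicate 1, 0.0881 without MZL replicate 4, 0.0661 without MZL replicate 2, 0.0507 without TZL replicate 5 and 0.052 without TZL replicate 8. It was also lost with no filter on low values (limma adjusted p = 0.0663), with sex, breed and age as covariates (4.73, limma adjusted p = 0.0628), without the 6 arrays of high actin 3' control (5.72, limma adjusted p = 0.0639), without MZL replicate 2 and PTCL replicate 3, whose EIF2S3 reading contradicts the labelled sex (5.37, limma adjusted p = 0.0537), and with readings under 4 raised to 4 (3.85, limma adjusted p = 0.0507).

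The other CTLA4 probe set read 6.37, 8.44, 3.10 and 4.40 in PTCL replicates 1 to 4. It reached the minimum in 5 of 35 dogs, 3 of them PTCL, 1 LBT and 1 MZL, and in no TZL or DLBCL dog. It passed the filter of 4 dogs, among 18030 probe sets, only through its PTCL dogs. Its log2 differences were 1.23 in T minus B, 2.63 in PTCL minus TZL and 3.21 in the difference of differences. Because of how it passed, these are given as values and not as support for the calls on the main probe set. The DLBCL minus MZL difference of this other probe set was -0.58 (limma adjusted p = 0.712).

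**Figure D4:**
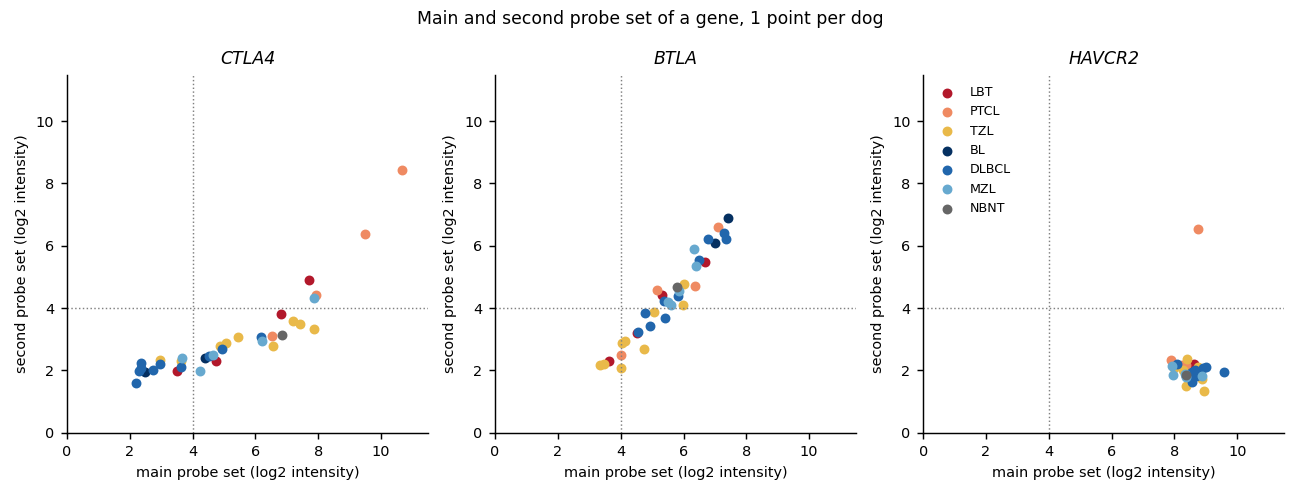
Each dog's log2 intensity on the main probe set (horizontal axis) and on the second brightest probe set (vertical axis) of CTLA4, BTLA and HAVCR2, coloured by label, with the minimum of 4 dotted on both axes. The third BTLA probe set, under the minimum in 34 of 35 dogs, is not drawn. The 2 probe sets drawn for CTLA4 and for BTLA rise together, and for HAVCR2 a single PTCL dog reads 6.55 on the second probe set while the remaining 34 dogs are under the line.

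The 3 genes whose pattern over the 34 dogs was most like CTLA4 were BCL6 (Pearson r = 0.802), NDEL1 (0.707) and TOX (0.701). These correlations are a description, since the points share arrays and disease labels. BCL6, a transcription repressor of germinal centre B cells and follicular helper T cells, averaged 8.62 ± 0.96 in LBT (n = 4), 10.25 ± 1.62 in PTCL (n = 4), 8.63 ± 0.99 in TZL (n = 9), 6.06 ± 1.70 in DLBCL (n = 10) and 7.17 ± 0.50 in MZL (SD, n = 5). TOX, a nuclear factor of developing and chronically stimulated T cells, averaged 8.74 ± 0.42 in LBT and 8.82 ± 0.89 in PTCL, against 4.95 ± 1.49 in TZL. TOX means in LBT and PTCL lay within their SD of each other. CTLA4 averaged 5.69 in LBT and 8.65 in PTCL, a difference that was not called (limma adjusted p = 0.229). TOX and CTLA4 were not tested against each other.

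BTLA, the receptor of B and T cells that binds HVEM, was the only gene of the 4 tested to be called lower in T. LBT dogs read 4.53, 3.62, 5.32 and 6.70, and PTCL dogs 6.36, 5.14, 4.02 and 7.10. TZL dogs had a lowest value of 3.33, a median of 4.15 and a highest of 6.00. Under the minimum were 4 of 17 T dogs, 3 of them TZL. The 2 BL dogs read 7.00 and 7.43. DLBCL dogs had a lowest value of 4.55, a median of 5.63 and a highest of 7.34, and the 5 MZL dogs read 6.34, 5.85, 5.49, 5.60 and 6.39. All 17 B dogs reached the minimum. In descending order the means were 7.22 ± 0.30 in BL, 5.93 ± 0.42 in MZL, 5.88 ± 1.03 in DLBCL, 5.65 ± 1.36 in PTCL, 5.04 ± 1.30 in LBT and 4.53 ± 0.98 in TZL (SD). Every neighbouring pair from MZL down overlapped. BL, with 2 dogs, was tested against no other label.

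BTLA averaged 4.91 ± 1.17 in T and 6.05 ± 0.92 in B (SD, n = 17 each), a difference of -1.14 (SE 0.35, limma adjusted p = 0.0081). With readings under 4 raised to 4, BTLA was 2.07-fold lower in T (limma adjusted p = 0.0109). The ranges overlapped and no single dog decided the call. The 6 arrays of high actin 3' control read BTLA lower within subtypes by 1.41 on the log2 scale (set minus other -1.41, SE 0.40, limma adjusted p = 0.0102). Without them T minus B was -0.99 (limma adjusted p = 0.028), and with them as a block it was -0.97 (limma adjusted p = 0.0096). With the 3' minus 5' differences of actin and GAPDH as covariates it was -0.76 and no longer called (limma adjusted p = 0.118).

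TZL and MZL differed in BTLA by -1.40 (4.53 in TZL and 5.93 in MZL, SE 0.54, unadjusted p = 0.0149), which just missed the threshold at a limma adjusted p of 0.0531. It passed without any one of 9 dogs (TZL replicates 3 and 9, PTCL replicates 3 and 4, LBT replicates 2 and 4, and DLBCL replicates 1, 5 and 9), at limma adjusted p of 0.0282 to 0.0489. Without the 6 arrays of high actin 3' control the difference was -1.04 (limma adjusted p = 0.171). It also passed in 6 of the 17 alternatives, at limma adjusted p of 0.0224 to 0.0496. BTLA has 3 probe sets. The second brightest, tested among all probe sets, gave -1.75 (3.07 ± 0.96 in TZL and 4.82 ± 0.77 in MZL, limma adjusted p = 0.0381), with the TZL mean under the minimum. The third reached the minimum in 1 of 35 dogs, DLBCL replicate 11 at 4.02, and was not tested. DLBCL minus MZL was -0.05 (95% interval -1.14 to 1.04, limma adjusted p = 0.988). PTCL minus TZL was 1.12 (SE 0.59, limma adjusted p = 0.218), LBT minus TZL 0.51 (limma adjusted p = 0.543) and LBT minus PTCL -0.61 (limma adjusted p = 0.790). Within T dogs, BTLA and the mean level of the B cell markers were correlated by Pearson (r = 0.560, permutation adjusted p = 0.043) but not clearly by rank (rho = 0.490, permutation adjusted p = 0.128). There r was 0.657 without the 2 farthest dogs and 0.707 without the arrays of high actin 3' control. This marker mean holds undetected readings, with PAX5 under the minimum in 17 of 17 T dogs, CD22 in 8 and CD79B in 5. Within B dogs r was -0.422 (permutation adjusted p = 0.131) and rho -0.382 (permutation adjusted p = 0.177), with r = -0.486 without the 2 farthest dogs and -0.589 without those arrays. The genes most like BTLA over 34 dogs were ETFDH (r = 0.804), PLEKHA2 (0.777) and FAM91A1 (0.772).

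LAG3, a receptor that binds MHC class II, was under the minimum in 30 of 35 dogs. The 5 dogs at or above it were DLBCL replicate 3 at 6.02, TZL replicate 7 at 4.93, TZL replicates 1 and 9 at 4.33 each, and DLBCL replicate 4 at 4.15. No LBT, PTCL, BL or MZL dog reached the minimum. Of these 5 dogs, 3 (TZL replicates 1 and 7 and DLBCL replicate 4) are on arrays with a high actin 3' control, where LAG3 read 1.03 higher within subtypes (SE 0.42, limma adjusted p = 0.0798). LAG3 was 2.99 in T and 2.58 in B, both under the minimum, and was not called in any of the 7 comparisons by limma. With array weights T minus B was 0.70 and passed (limma adjusted p = 0.041).

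The genes most like LAG3 were EOMES (r = 0.846), a factor of cytotoxic lymphocytes, NKG7 (0.818), a protein of cytotoxic granules, and SQOR (0.753), a mitochondrial oxidoreductase, over 34 dogs. These likenesses rest largely on LAG3 readings under the minimum. NKG7 is also in the cytotoxic and NK cell marker list. LAG3 was under the minimum in 14 of 17 T dogs and 15 of 17 B dogs, so its correlation with that list, computed among the 8 relations, runs almost wholly on undetected readings and nothing is read from it.

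HAVCR2, which encodes TIM-3, was bright on its main probe set and varied least of the 4 genes tested. It averaged 8.49 ± 0.28 in T and 8.56 ± 0.40 in B (SD, n = 17 each), a difference of -0.07 (95% interval -0.33 to 0.18, limma adjusted p = 0.668). Label means ran from 8.71 in DLBCL down to 8.30 in MZL. DLBCL minus MZL was 0.42 (SE 0.19, unadjusted p = 0.0378, limma adjusted p = 0.344). The highest dog was DLBCL replicate 8, at 9.58.

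The other HAVCR2 probe set did not share this pattern. It read 6.55 in PTCL replicate 2, and the next dog, TZL replicate 3, read 2.37. The remaining dogs went down to 1.34, so 34 of 35 were under the minimum. The gene most like the main probe set over 34 dogs was MED7 (r = 0.688), a subunit of the Mediator complex, followed by ELP3 (0.664) and ANKRD10 (0.655). MED7 lies next to HAVCR2 on chromosome 4 in RefSeq's table for the assembly UU_Cfam_GSD_1.0, and its own probe set averaged 9.30 ± 0.43 in T and 9.46 ± 0.40 in B (SD, n = 17 each). None of the genes most like CTLA4, LAG3 or BTLA was its next neighbour. Which transcripts the main probe set binds was not tested, and the HAVCR2 values hold for that probe set only.

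CD274, the ligand of PDCD1 known as PD-L1, reached the minimum in DLBCL replicate 8 at 4.03. The next dog was MZL replicate 5 at 3.29. The other CD274 probe set also had DLBCL replicate 8 highest, at 4.29, and DLBCL replicate 1 next, at 3.09. Group means of the main probe set were all under the minimum, between 2.39 in LBT and 2.83 in DLBCL. Its receptor PDCD1, known as PD-1, was highest in TZL replicate 1 at 2.58, and none of its 3 probe sets reached the minimum in any dog, the highest reading being 2.65 in MZL replicate 4.

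TIGIT, a receptor for the nectin-like ligand PVR, was highest in PTCL replicate 2 at 3.46, followed by DLBCL replicate 9 at 2.53. FOXP3 was highest in TZL replicates 3 and 1, at 2.79 and 2.75. LBT had the lowest FOXP3 mean of the labels, with dogs at 1.28, 1.45, 1.63 and 1.82. Neither gene was detected in any dog, which leaves a FOXP3 level up to the minimum of 4 possible in each. In a fit without the filter on low values, 15115 genes were tested and none of the 5 genes added was called. Their smallest limma adjusted p was 0.0543, for IL10 in T minus B (-0.97), followed by 0.058 for CD274 in T minus B (-0.29) and 0.0664 for FOXP3 in LBT minus TZL (-0.55).

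IL10 reached the minimum in 3 dogs, all of the B phenotype. DLBCL replicate 3 read 7.55, MZL replicate 1 read 4.97 and DLBCL replicate 8 read 4.22, and the other 32 dogs were under the minimum. The highest T dog, PTCL replicate 1, was at 3.16. Means were 2.03 ± 0.55 in T and 3.00 ± 1.49 in B (SD, n = 17 each), both under the minimum.

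Several of the highest values came from the same few tumours. PTCL replicate 2 was the highest of 35 dogs on both CTLA4 probe sets and on the other HAVCR2 probe set. It also read highest on TIGIT, at 3.46, where no dog reached the minimum. Its T cell marker sum was 25840, the highest of PTCL, and its B cell marker sum of 153 was the lowest of PTCL. DLBCL replicate 3 was highest on IL10 and LAG3 and was the highest DLBCL dog on CTLA4, at 6.17. Its cytotoxic and NK cell marker sum of 8882 and its plasma cell marker sum of 16270 were the highest of all dogs, against DLBCL medians of 336 and 2081. In these lists 9 of 12 and 4 of 7 markers had a probe set. PRF1, NCR1 and NCR3 were under the minimum in every DLBCL dog, and the plasma cell marker SDC1 in every dog. The plasma cell sum ran from 5061 to 14788 in TZL, a T label. DLBCL replicate 3 had a T cell marker sum of 6224, which ranked 4 of 10 within DLBCL. DLBCL replicate 8 was highest on CD274 by both probe sets and on the main HAVCR2 probe set, and had the third IL10 value. In that dog the cell division marker sum of 7169 ranked 2 of 10 and the cytotoxic and NK cell sum was 352. The part of the cells behind these markers in the readings was not tested.

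The other genes of the pathways were read from lists, of which a few genes sit in several. Of the checkpoint ligands 8 of 18 with a probe set were tested, and in T against B 2 were called higher and 1 lower by limma, where 46.5% of all genes tested were called, with a median log2 difference of 0.03 against -0.03 over all genes tested. CD80, a ligand of CTLA4 and CD28, was 7.35 ± 2.10 in T and 4.88 ± 1.01 in B (difference 2.47). Within T it differed between labels. It was 8.96 ± 0.55 in TZL, where the lowest dog read 8.11, the median 9.17 and the highest 9.80, against 4.50 ± 0.68 in MZL, a difference of 4.46 (SE 0.52) with no overlap. PTCL minus TZL was -2.31 (SE 0.56, limma adjusted p = 0.005) and LBT minus TZL -4.55 (SE 0.56), and the LBT dogs, up to 6.05, did not overlap TZL. CD70, the ligand of CD27, averaged 2.92 in LBT and 3.08 in PTCL, both under the minimum, against 6.16 in TZL (differences of -3.24 and -3.08). CTLA4 and its ligand CD80 ran in opposite directions in PTCL against TZL, 2.98 and -2.31. HMGB1, a nuclear protein that TIM-3 binds, was higher in PTCL than in TZL by 0.91 and in LBT than in TZL by 1.10.

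Among other inhibitory receptors and enzymes, 13 were tested and 4 were called higher and 4 lower in T than in B by limma, where 46.5% of all genes tested were called, 22.3% higher and 24.2% lower (median 0.10 against -0.03 over all genes tested). CD96, a receptor of T and NK cells, was higher by 5.21 and CD5, a brake on T cell receptor signalling, by 4.35. CD22 and CD72, inhibitory receptors of B cells, were lower by 3.14 and 3.02 on the log2 scale (differences of -3.14 and -3.02). CD5 and CD22 also serve as cell type markers here, and CD5 was lower in LBT than in TZL (difference -1.97, limma adjusted p = 0.034).

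**Figure D5:**
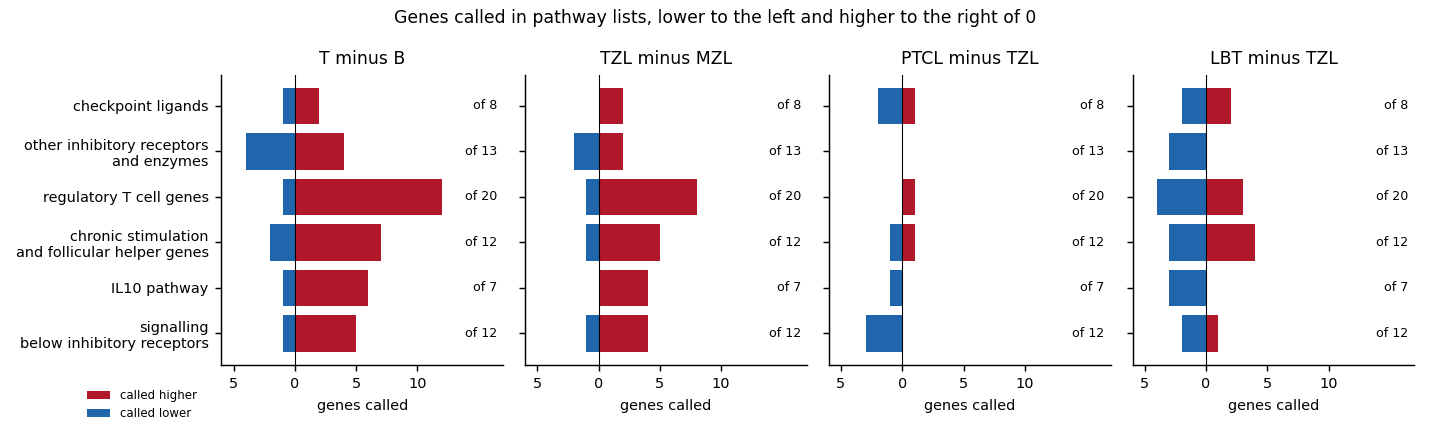
Number of genes called by limma in 6 pathway lists (vertical axis), with genes called higher drawn right of 0 and genes called lower drawn left of 0, in T minus B, TZL minus MZL, PTCL minus TZL and LBT minus TZL. The number tested stands at the right of each bar. In T minus B the regulatory T cell list has 12 higher and 1 lower of 20, against 22.3% and 24.2% of all genes tested. In PTCL minus TZL it has 1 higher of 20, against 7.6% of all genes tested.

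Of the regulatory T cell genes 20 were tested, and 12 were called higher and 1 lower in T than in B by limma, against 22.3% higher and 24.2% lower over all genes tested, with a median difference of 0.81 against -0.03 over all genes tested. TNFRSF18, the costimulatory receptor GITR, averaged 6.37 ± 2.07 in T and 2.20 ± 0.44 in B, and ICOS, a costimulatory receptor, 5.29 ± 1.72 in T and 2.07 ± 0.58 in B (SD, n = 17 each). SATB1, a chromatin organiser, was 8.69 in T and 5.88 in B. The B means of TNFRSF18 and ICOS lay under the minimum. CCR6, a chemokine receptor also present on B cells, was lower in T (2.72 in T and 6.56 in B). FOXP3 itself was under the minimum in all dogs, and these genes are also expressed by conventional T cells. IKZF2, which encodes Helios, was 10.57 ± 0.61 in LBT and 8.46 ± 2.28 in PTCL, against 4.53 ± 1.64 in TZL, differences of 6.04 and 3.93 (SE 0.73 each). No LBT dog overlapped TZL, since LBT started at 9.86 and TZL ended at 7.35. IL2RB, a chain of the IL2 receptor, was lower in LBT than in TZL by 2.61 on the log2 scale (4.06 in LBT and 6.67 in TZL). In PTCL against TZL IKZF2 was the only one of 20 called, where 13.7% of all genes tested were called. In LBT against TZL 3 of 20 were higher and 4 lower, where 17.8% of all genes tested were higher and 12.4% lower.

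Among genes of chronic stimulation and follicular helper T cells, 12 were tested, and 7 were higher and 2 lower in T than in B by limma, against 22.3% and 24.2% over all genes tested (median 1.99 against -0.03 over all genes tested). CD40LG, the helper ligand of CD40, was 8.65 ± 1.44 in T and 2.37 ± 0.85 in B, and SH2D1A, an adaptor of SLAM receptors, 8.44 in T and 4.26 in B. In PTCL against TZL 1 of 12 was higher, TOX by 3.87 (SE 0.82, limma adjusted p = 0.002), and 1 was lower, CD40LG (difference -1.65, SE 0.53, limma adjusted p = 0.034). Over all genes tested 7.6% were higher and 6.07% lower there. TOX was also higher in LBT than in TZL by 3.79, where CTLA4 differed by 0.02. CXCR5, the chemokine receptor of B cell follicles, was lower in TZL than in MZL (3.37 in TZL and 7.57 in MZL).

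Of the IL10 pathway 7 genes were tested, and 6 were higher and 1 lower in T than in B by limma, against 22.3% higher and 24.2% lower over all genes tested. The list's median difference was 0.79, and that of all genes tested -0.03. NFIL3, a transcription factor that promotes IL10 expression in mouse T cells, was 7.82 in T and 4.74 in B. STAT3, the signal transducer of the IL10 receptor, was 7.61 ± 0.57 in T and 6.44 ± 0.64 in B, and 8.06 ± 0.19 in TZL against 6.39 ± 0.30 in MZL (difference 1.67, SE 0.28). The kinases TYK2 and JAK1 were higher in T by 0.67 and 0.43. IL10 itself was detected in no T dog.

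In signalling below the receptors 12 genes were tested, and 5 were higher and 1 lower in T than in B by limma. Over all genes tested 46.5% were called there, 22.3% higher and 24.2% lower. The share called was thus near that of all genes, with more of it in the higher direction. The median difference was 0.19 against -0.03 over all genes tested. The kinases LCK and FYN were higher by 4.15 and 2.97, and UBASH3A, a suppressor of T cell receptor signalling, by 3.43. LCK also serves as a T cell marker here. PTPN6, the phosphatase SHP-1 recruited by BTLA and other inhibitory receptors, was 10.24 in T and 11.19 in B (difference -0.95). In PTCL against TZL 3 were lower and none higher, where 6.07% of all genes tested were lower and 7.6% higher, with a median of -0.37 against 0.03 over all genes. The 3 were UBASH3A (4.24 in PTCL and 7.07 in TZL), CSK (10.82 in PTCL and 11.80 in TZL) and DGKA (8.50 in PTCL and 9.54 in TZL), which each restrain T cell receptor signalling.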

How the data were processed

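The authors deposited linear intensities for every probe set of each array, made with GCRMA, per the submitters' processing notes. The GCRMA version and settings are not given in the sources used here. Any intensity under 1 was raised to 1 and log2 was taken here. Probe sets took gene symbols from the platform annotation, 1 probe set per gene, and the deposited values carried no detection calls. With arrays there is no read depth, and the number of dogs limits the precision. Each dog is 1 tumour sample.

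The 9 genes, the pathway lists and the marker lists were chosen with earlier results of these data known. Tests used limma 3.58.1 in R 4.3.3 (lmFit and eBayes, two-sided, Benjamini-Hochberg over the genes tested, called under 0.05). T and B were compared by 2 group means over 34 dogs, and labels by contrasts in 1 fit with 6 label means, which share the spread and some groups. The NBNT dog was left out. Relations across dogs used 100000 permutations in Python 3.11.15 with scipy 1.17.1, and figures matplotlib 3.10.9. The steps were tested on simulated data.

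Named genes were all 9 genes, up to 4 called genes of smallest p per list and comparison, the 3 genes most like each gene tested, markers beside a result, and single tumours standing apart or highest. Not every gene this allows is printed. Alternatives were other filters, normalizations, variance models, probe set choices, covariates, samples and values below the minimum set to it. Leaving out the 2 dogs of opposed EIF2S3 reading was added after seeing the data.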

Additional observations from a re-analysis of the deposited data

Results flagged for a closer look

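In groups of 4 to 10 dogs, 45 groups were examined (5 labels for each of the 9 genes), of which chance would single out about 1 in 20, and 2 dogs stood apart from their group. CD274 read 4.03 in DLBCL replicate 8, with a gap to the next DLBCL dog of 0.607 of the group's range. IL10 read 7.55 in DLBCL replicate 3, with a gap of 0.570 of the group's range. The other 9 DLBCL dogs were under the minimum on CD274, and DLBCL replicate 8 was the only other one above it on IL10. The difference of differences, PTCL minus TZL against DLBCL minus MZL, was 4.88 on the log2 scale for CTLA4 (limma adjusted p = 0.0343). That call was lost without any of 6 dogs and in 5 of the 17 alternatives. LBT, also graded high, differed from TZL by 0.02 (limma adjusted p = 0.991). CTLA4 was higher in PTCL than in TZL by 2.98 and lower in DLBCL than in MZL (difference -1.91, not called). Of the 10 DLBCL dogs, 7 were under the minimum on CTLA4.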

How the results depend on the processing

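The number of the 4 genes called moved in these settings. In T minus B it was 1 with RNA quality covariates and 3 with array weights (LAG3 added), in place of 2, and 2 without each dog in turn. In TZL minus MZL it was 1 with a minimum of log2 6, quantile normalization, array weights, the mean of probe sets, both arrays of the repeated dog or the compared groups only, in place of 0, and 0 to 1 without each dog in turn. That gene was BTLA, TZL minus MZL, at adjusted p between 0.022 and 0.050 there. In PTCL minus TZL it was 0 with no filter, array weights, sex, breed and age as covariates, or the compared groups only, in place of 1, and 0 to 1 without each dog in turn. In (PTCL minus TZL) minus (DLBCL minus MZL) it was 0 with no filter, the same covariates, the 6 arrays left out, values below the minimum set to it, or dogs of opposed sex probe set left out, in place of 1, and 0 to 1 without each dog in turn. DLBCL minus MZL, LBT minus TZL and LBT minus PTCL had 0 of the 4 called in all 17 alternatives and without each dog. The causes were not tested. CTLA4 kept its direction in T minus B, PTCL minus TZL and the difference of differences in all alternatives run. These values, none called, changed sign. HAVCR2, T minus B, was 0.13 with the mean of probe sets and 0.14 with RNA quality covariates, and LAG3, T minus B, was -0.034 with values set to the minimum. LAG3, DLBCL minus MZL, was -0.18 in Golden Retrievers only. BTLA, DLBCL minus MZL, was 0.029 with array weights, 0.13 with covariates, and 0.23 with the 6 arrays as a block or left out, and -0.21 to 0.094 without each dog. HAVCR2, PTCL minus TZL, was 0.61 with the mean of probe sets, 0.28 in Golden Retrievers, of which 1 has PTCL, and 0.017 without the 6 arrays. CTLA4, LBT minus TZL, was -0.091 with quantile normalization, -0.125 with array weights, -0.22 with covariates, -0.75 in Golden Retrievers, -0.079 with the block, -0.011 with values set to the minimum, and -0.65 to 0.75 without each dog. HAVCR2, LBT minus TZL, was -0.027 with quantile normalization and -0.025 to 0.093 without each dog. BTLA, LBT minus TZL, ranged from -0.039 to 0.99 and CTLA4, TZL minus MZL, from -0.067 to 0.99 without each dog. In Golden Retrievers, LAG3, LBT minus PTCL, was 0.061, HAVCR2, LBT minus PTCL, -0.17 and BTLA, LBT minus PTCL, 0.071. With the mean of probe sets HAVCR2, LBT minus PTCL, was -0.47 and HAVCR2, (PTCL minus TZL) minus (DLBCL minus MZL), 0.37. The number of all genes called ran from 0 to 378 in DLBCL minus MZL (0 as reported), 0 to 180 in LBT minus PTCL (51), 42 to 324 in the difference of differences (147), and 556 to 1182 in PTCL minus TZL (1025). Tested singly, 9 probe sets were called in DLBCL minus MZL. The alternative on an XIST probe set was not run, as no probe set is paired with XIST here, and EIF2S3 took its place. For T minus B the compared groups are all dogs tested. No paired analysis was possible because each dog belongs to 1 label only. Signal near background limits LAG3, IL10 and CD274, and leaves PDCD1, TIGIT and FOXP3 unmeasured.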

Other observations

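The single dog labelled NBNT, graded low, had CTLA4 at 6.86, BTLA at 5.79, HAVCR2 at 8.36 and LAG3 at 3.15. PDCD1, CD274, TIGIT, FOXP3 and IL10 were under the minimum, at 2.42, 2.52, 2.01, 2.26 and 2.57. It had CD80 at 7.86 and CD70 at 7.65, where TZL dogs averaged 8.96 and 6.16, and IKZF2 at 4.77 and TOX at 5.64, where TZL dogs averaged 4.53 and 4.95. Its T cell marker sum of 19109 was within the TZL range of 17537 to 27928, and its B cell marker sum of 2592 within that of 349 to 3182. Its cell division marker sum of 1526 also lay within the TZL range of 743 to 2364. As 1 dog it allows no test.

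The 2 arrays of the repeated DLBCL dog read CTLA4 at 5.44 and 4.43, BTLA at 5.60 and 5.18, HAVCR2 at 8.69 and 8.45, and LAG3 at 2.66 and 2.88. The CTLA4 readings lay 1 log2 step apart in 1 tumour.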
